A study of Homo sapiens with 24 samples.

Results

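The comparison pooled 4 lines of SET2 cells that had been grown on in a type I JAK inhibitor and set them against naive cells of the same line. It used 15 of the 24 libraries of the study, 12 of them from persistent cells. Of 20154 genes tested, 491 had a higher value in each of the 12 persistent libraries than in any of the 3 naive ones. Another 798 had a lower value in each of the 12. These 1289 genes are called separated here. The groups were the lines persistent to BMS911543, CYT387 (momelotinib), INC424 (ruxolitinib) and SAR302503 (fedratinib), with 3 libraries each, naive cells given the vehicle DMSO for 4 h (3 libraries), and naive cells with no exposure (3 libraries). Naive cells given INC424 for 4 h or 48 h (3 libraries each) entered 1 further readout. All groups were SET2 cells cultured in 20% FCS, with the inhibitor present at all times for the persistent lines. The labels do not give inhibitor concentrations, the time in inhibitor or whether a persistent line was 1 clone. Nor do they say that replicates came from separate cultures. The p-values therefore reflect the spread between these libraries, which may be technical, and not between lines derived again.

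SET2 is an established megakaryoblastic cell line from a patient with a JAK2-mutated myeloproliferative neoplasm, and it grows without added cytokine. JAK2 is the kinase that carries signals of the erythropoietin, thrombopoietin and granulocyte-macrophage receptors to the STAT transcription factors. Type I inhibitors occupy its active conformation, and cells can persist in them without a further mutation. Cells of this lineage keep features of the shared progenitor of megakaryocytes, red cells, mast cells and basophils.

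The libraries held 21770721 to 36160750 reads assigned to genes. Values are normalised read counts, the authors' counts divided by a size factor per library. They are not per length, so levels are compared between libraries and not between genes. In bulk RNA, fewer cells of a kind and less RNA per cell cannot be told apart. Of the 12 markers of SET2's own lineage, the platelet factor PF4 was at 0 in all 3 naive libraries and PPBP, another platelet chemokine, was at most 22.6 there, while ITGA2B, GATA1, TAL1 and NFE2 were present throughout. These 12 markers took 0.339 to 0.812% of reads in persistent libraries (median 0.488%) and 0.681 to 0.806% in naive ones (median 0.792%). Only CYT387 persistent libraries 1 and 3, at 0.798 and 0.812%, were not below all naive libraries. KIT and CD34, which are among the 12, were themselves separated downwards. Library 2 of the CYT387 line stood apart: 9 squamous epithelial markers took 0.495% of its reads and 11 markers of stroma, vessel and macrophages 0.598%. In the other 11 persistent libraries these shares were 0.000239 to 0.101% and at most 0.00119%, against 0.000153 to 0.00166% and at most 0.000621% in naive libraries. Of the defining markers, KRT17 and CD163 were at 0 in all naive libraries. The part of this RNA in the results was not tested beyond leaving libraries out.

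The lower genes had moved further than the higher ones. The 491 higher genes, 2.44% of those tested, had a median log2 difference of 0.84 between the mean of the 4 lines and naive cells, with quartiles of 0.59 and 1.42. The 798 lower genes, 3.96% of those tested, had a median of -1.19, with quartiles of -2.16 and -0.73. A difference of at least 2 on the log2 scale was reached by 79 higher and 234 lower genes. The gap between the nearest persistent and the nearest naive library was small for most of them, with a median of 0.16 for the higher and 0.23 for the lower genes, and it was at least 1 for 28 and 82. At the edge, SRSF2 was just inside with a lowest persistent value of 6939 and a highest naive value of 6937, and COA1 likewise with 2144 and 2144. HCST was just outside on the other side, with a highest persistent and a lowest naive value of both 1366. Without naive library 1 the sets held 825 and 1225 genes, and without CYT387 persistent library 2 they held 696 and 1062. Leaving out a library can only add genes to these sets, apart from genes that are then no longer tested.

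A fit across all genes asked which of them differed in the equal-weight mean of the 4 lines. It called 1974 genes higher (9.79%) and 2422 lower (12%) in persistent than in naive cells (limma on log2 of the normalised count plus 1, two-sided, Benjamini-Hochberg adjusted p under 0.05). The median difference over all tested genes was 0.01. Of the separated genes 467 higher and 772 lower ones were among the calls, and 24 and 26 were not. That count follows from how they were chosen. A log2 difference below is the mean of the 4 lines minus naive in this fit, with its standard error after ±. Genes are said to have risen or fallen only where they passed this test.

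Vehicle-treated naive cells already lay on the persistent side of naive cells for most separated genes. For 309 of the 491 higher genes (62.9%) all 3 DMSO libraries were above all 3 naive ones, against 23.8% of all tested genes. For 624 of the 798 lower genes (78.2%) all 3 DMSO libraries were below all naive ones, against 24.5% of all tested genes. The separated genes were chosen on the same naive libraries, so the shares of all tested genes are no expectation for them, and nothing is read from the difference. In 247 higher and 451 lower genes the 3 DMSO libraries also reached the range of the persistent libraries. The persistent libraries were apart from both control states for 143 higher genes (0.71% of all genes) and 199 lower genes (0.987%). Without CYT387 persistent library 2 these numbers were 240 and 278, and without naive library 1 the genes matched by DMSO numbered 573 and 999. Without naive library 2 the matched higher genes numbered 467. In 40 higher and 32 lower genes the DMSO libraries lay on the opposite side of naive from the persistent ones.

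**Figure D1:**
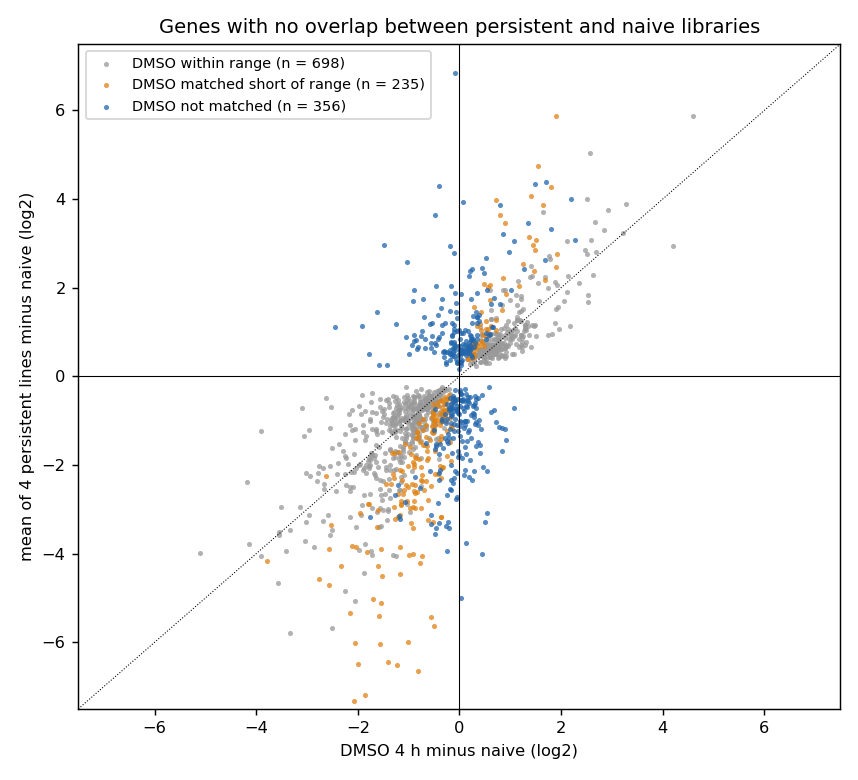
Each point is 1 of the 1289 separated genes, with the mean of the 4 persistent lines minus naive on the vertical axis and DMSO 4 h minus naive on the horizontal axis (both log2). Grey points are genes whose 3 DMSO libraries reached the persistent range (698), orange points lay beyond naive but short of that range (235) and blue points were not matched by DMSO (356). The dotted line marks equal differences. Both axes share the naive libraries.

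Matched higher genes had a median log2 difference of 0.83 in persistent cells and 0.76 in DMSO, and matched lower genes -1.22 and -0.99. Genes that were not matched had medians of 0.87 and 0.00 where higher, and -1.13 and -0.03 where lower. The split was made on the DMSO values and on naive libraries that both differences share, so nothing is read from these medians. Against DMSO in place of naive cells, the mean of the lines was called higher for 3435 genes (17%) and lower for 3303 (16.4%). Of the 491 higher genes 228 were called higher and 25 lower in that comparison, and of the 798 lower genes 385 were called lower and 81 higher. DMSO itself differed from naive cells in 2307 genes higher (11.4%) and 2942 lower (14.6%).

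Genes of mast cells, basophils and eosinophils formed the list with the largest share of separated members. Mast cells and basophils store proteases and carry the high-affinity IgE receptor, and eosinophils store basic proteins. Of 16 tested members, 11 were lower in every persistent library (68.8%, against 3.96% of all tested genes). In the mean of the lines 15 fell (93.8%, against 12%). None was separated upwards or rose. The median of the list was -2.77. It was -3.22 in the BMS911543, -1.85 in the CYT387, -3.40 in the INC424 and -3.28 in the SAR302503 line. In DMSO it was -1.20. Of the 11 separated members 10 were matched by DMSO and 6 lay apart from both control states. Over the same libraries the 12 lineage markers of SET2 took the shares of reads given above, with a lower median in persistent than in naive libraries.

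Granule proteins fell the most. PRG2, the major basic protein of eosinophil granules, was 0 to 88.8 (median 15) in persistent libraries, 636, 706 and 719 in DMSO libraries and 1623, 1517 and 1699 in naive libraries (log2 -6.52 ± 0.45, adjusted p = 3.91e-10). The 3 groups did not overlap, and the highest persistent library was below the lowest DMSO library. CPA3, the mast cell carboxypeptidase, was 30.1 to 362 (median 67.5) in persistent, 928, 805 and 763 in DMSO and 3269, 2374 and 2534 in naive libraries (log2 -5.02 ± 0.16). Again the groups were apart, with the line means at 33.3 in BMS911543, 299.6 in CYT387, 68.9 in INC424 and 69.1 in SAR302503. The tryptase genes TPSAB1, TPSB2 and TPSD1 are near copies whose reads may be split between them. TPSAB1 was 2.30 to 109 (median 19.9) in persistent, 125, 126 and 197 in DMSO and 407, 478 and 391 in naive libraries (log2 -4.50 ± 0.27). TPSB2 (log2 -4.27 ± 0.43) and TPSD1 (log2 -5.34 ± 0.59) fell too, and TPSD1 overlapped with DMSO in its highest persistent value, 224.

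Receptors of these cells fell too. IL1RL1, the receptor of interleukin 33, was 6.16 to 105 (median 63.6) in persistent, 532, 620.1 and 559 in DMSO and 954, 1010.3 and 949.8 in naive libraries (log2 -4.21 ± 0.38, adjusted p = 2.26e-08). Its line means were 84.0 in BMS911543, 73.4 in CYT387, 54.4 in INC424 and 34.5 in SAR302503, all below each control library. FCER1A, the alpha chain of the IgE receptor, was 872 to 2942 (median 1148) in persistent, 6769, 6220.4 and 6126 in DMSO and 6446, 5717 and 4526 in naive libraries (log2 -1.88 ± 0.19). It was the 1 separated member of the list that DMSO did not match, with DMSO and naive overlapping. MS4A2, the beta chain of the same receptor, was 1.27 to 22.8 (median 11) in persistent, 22.8, 14.8 and 22.9 in DMSO and 73.8, 70.1 and 70.3 in naive libraries (log2 -2.88 ± 0.46). Here persistent and DMSO values overlapped. The basophil ectoenzyme ENPP3 (log2 -2.66 ± 0.15), the prostaglandin D synthase HPGDS (log2 -2.01 ± 0.21) and MS4A3 (log2 -1.78 ± 0.16), a myeloid membrane protein, also fell, and their DMSO libraries lay within the persistent range.

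**Figure D2:**
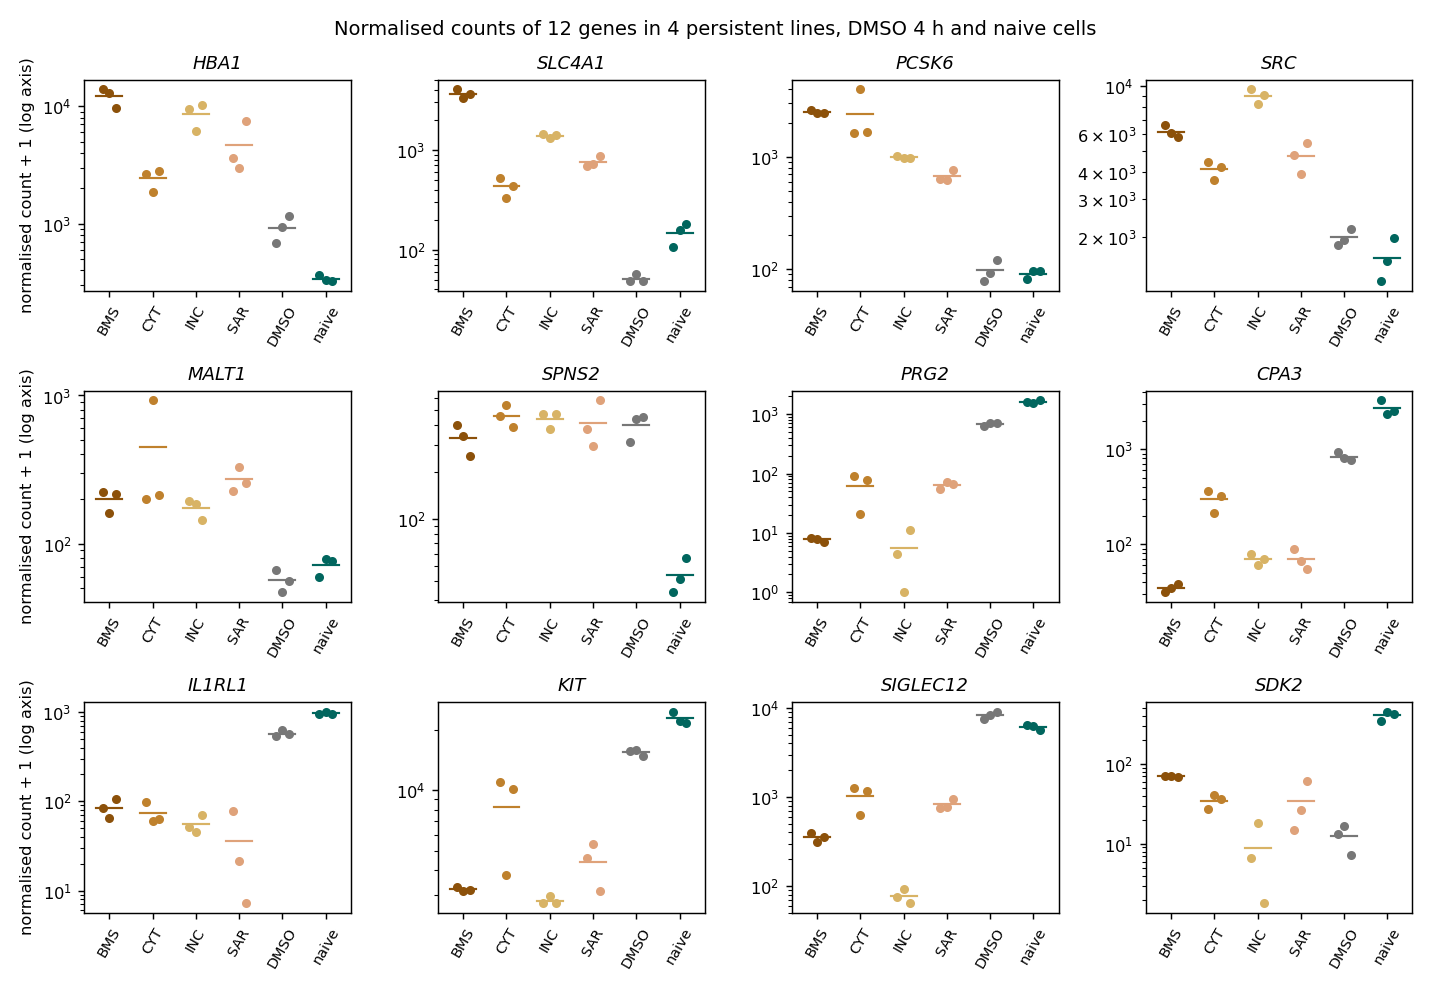
Normalised read count plus 1 (log axis) of 12 separated genes in each library of the 4 persistent lines, DMSO 4 h and naive cells. Points are libraries and bars are group means over 3 libraries. HBA1, SLC4A1, PCSK6, SRC, MALT1 and SPNS2 are higher and PRG2, CPA3, IL1RL1, KIT, SIGLEC12 and SDK2 lower in each persistent library than in any naive one. SPNS2 and SDK2 reach the persistent range in DMSO, while SLC4A1 is below naive there.

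Several separated genes were neighbours on a chromosome. Runs of at least 3 consecutive tested genes, in the order of the GRCh38.p14 RefSeq annotation, were found 7 times among the lower and 3 times among the higher genes. The longest, with 6 genes, joined MRPL16, TCN1, MS4A3, MS4A2, MS4A6A and MS4A4E. MS4A6A, a membrane-spanning protein of myeloid cells, was 20.4 to 1114 (median 244) in persistent, 772, 878 and 764 in DMSO and 2603, 2535 and 2819.9 in naive libraries (log2 -4.04 ± 0.15). Its line means split, at 529 in BMS911543, 1021 in CYT387, 30.7 in INC424 and 41.1 in SAR302503. MRPL16, a mitochondrial ribosomal protein at the end of the run, fell by a smaller amount (log2 -0.74 ± 0.13), and DMSO did not match it. The other runs of lower genes included the 3 tryptases, then CD300A, CD300C and RAB37, and then SIGLEC9, SIGLEC7 and CD33. The higher runs held the alpha globin genes HBA2 and HBA1 with HBQ1, then SNRPA1, PCSK6 and TM2D3, and then MPPE1, IMPA2, TUBB6 and AFG3L2. These genes were listed after their values were seen, and overlapping genes may share reads.

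Most lectin-type receptors, many of which bind sialic acid or sugars on blood cells, fell. Of 25 tested CLEC and SIGLEC genes 15 fell (60%, against 12% of all tested genes) and none rose (median -1.76). Of the 25, 9 were separated (36%, against 3.96%), all downwards. DMSO matched 5 of the 9, and 3 lay apart from both control states. SIGLEC12 was 62.6 to 1262 (median 506) in persistent, 7477, 8364 and 9115 in DMSO and 6498, 6254 and 5669 in naive libraries (log2 -4.00 ± 0.15, adjusted p = 1.18e-14). Its DMSO libraries were above the naive ones, while each persistent library was below both. The line means were 352 in BMS911543, 1019 in CYT387, 75.8 in INC424 and 828 in SAR302503. CD33, the sialic acid receptor of myeloid cells, was 620.0 to 2605 (median 937) in persistent, 4549, 4967 and 5131 in DMSO and 6136, 6603 and 6077 in naive libraries (log2 -2.30 ± 0.19). All 3 groups were apart. SIGLEC10 was 111 to 2195 (median 334) in persistent, 2096, 2464 and 2466 in DMSO and 2464, 2221 and 2634 in naive libraries (log2 -2.77 ± 0.17), with CYT387 persistent cells close to naive (line log2 -4.04 in BMS911543, -0.59 in CYT387, -4.31 in INC424 and -2.11 in SAR302503).

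Cytokine and growth factor receptors carry the signals that JAK kinases relay. Of 39 tested, 18 fell (46.2%) and 4 rose (10.3%), against 12% and 9.79% of all tested genes (median -0.44, and -0.36 in DMSO). Of the 39, 10 were separated (25.6%, against 3.96%), all downwards. DMSO matched 9 of the 10. KIT, the receptor of stem cell factor, was 2726 to 10977 (median 3241) in persistent, 15637, 15822 and 14807 in DMSO and 24656, 22179 and 21612 in naive libraries (log2 -2.46 ± 0.20). The 3 groups were apart. CSF2RB, the shared beta chain of the receptors for interleukins 3 and 5 and GM-CSF, was 7690.3 to 23384 (median 10016) in persistent, 20617, 23759 and 24879 in DMSO and 32509, 42676 and 46014 in naive libraries (log2 -1.86 ± 0.15), with an overlap between persistent and DMSO. Its partner chain CSF2RA, at 29.5 to 75.4 (median 38.1) in persistent, 111, 85.4 and 106 in DMSO and 118, 118 and 92.7 in naive libraries (log2 -1.39 ± 0.24), was apart from both control states. IL5RA, the partner chain for interleukin 5, was 0 to 86.2 (median 29.6) in persistent, 35.8, 32.0 and 60.9 in DMSO and 527, 499 and 484 in naive libraries (log2 -4.65 ± 0.47). DMSO lay within its persistent range.

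Receptors of other families fell as well. CSF3R, the G-CSF receptor, was 54.7 to 374 (median 125) in persistent, 268, 332 and 305 in DMSO and 423, 662 and 689 in naive libraries (log2 -2.13 ± 0.20). IL6R, the interleukin 6 receptor, was 54.4 to 923 (median 364) in persistent, 599.9, 651 and 649 in DMSO and 1525, 1328 and 1356 in naive libraries (log2 -2.38 ± 0.15), lowest in the INC424 line (line log2 -1.61 in BMS911543, -1.23 in CYT387, -4.33 in INC424 and -2.37 in SAR302503). Both overlapped with DMSO and not with naive cells. The 2 chains of the type I interferon receptor, IFNAR1 (log2 -0.78 ± 0.12) and IFNAR2 (log2 -1.01 ± 0.12), moved least among the 10. Of the JAK and STAT genes themselves none of 11 was separated, and 1 fell (9.09%, against 12% of all tested genes). Of 17 STAT target and feedback genes 7 fell (41.2%, against 12%) and 3 rose (17.6%, against 9.79%). Separated downwards were 4 (23.5%, against 3.96%), namely IL2RA, SOCS2, IRF1 and SH2B3. SH2B3, the adaptor that restrains JAK2, had the smallest difference of the 4 (log2 -0.28 ± 0.08), and its adjusted p of 0.016 was 0.0643 without naive library 1 and 0.0715 without naive library 3.

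Genes of other functions were among the largest falls. ADCYAP1, which encodes the neuropeptide PACAP, was 8.21 to 1269 (median 345) in persistent, 6008, 6347 and 6074 in DMSO and 21812, 21492 and 23311 in naive libraries (log2 -7.18 ± 0.25, adjusted p = 2.52e-15). Its line means were 18.6 in BMS911543, 999.9 in CYT387, 40.8 in INC424 and 844 in SAR302503, so the lines differed strongly while each lay below both control states. TCN1, a vitamin B12 carrier of neutrophil granules, was 0 to 63.8 (median 2.72) in persistent, 174, 191 and 191 in DMSO and 1033, 667 and 696 in naive libraries (log2 -7.32 ± 0.86). HPGD, which inactivates prostaglandins, was 36.2 to 781 (median 381) in persistent, 2615, 2433 and 2176 in DMSO and 4647, 3573 and 3815 in naive libraries (log2 -4.05 ± 0.19). FAT3, an atypical cadherin, was 4.03 to 417 (median 98.6) in persistent, 1994, 2144 and 1927 in DMSO and 2879, 2781 and 2901 in naive libraries (log2 -5.64 ± 0.16). Each of these 4 genes was apart from DMSO as well as from naive cells.

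DHRS9 and ABCB11 start close to each other on chromosome 2 and both fell. DHRS9, a dehydrogenase that acts on retinoids and steroids, was 11.1 to 1149 (median 68.3) in persistent, 4628, 4564 and 4242 in DMSO and 8877, 7738 and 7177 in naive libraries (log2 -6.64 ± 0.19). ABCB11, the bile salt export pump of liver, was 0 to 302 (median 25.7) in persistent, 825, 939 and 807 in DMSO and 2200.0, 2282 and 2277 in naive libraries (log2 -6.44 ± 0.55). In both genes the CYT387 and SAR302503 lines kept more RNA than the other lines, with means of 3.27 in BMS911543, 208 in CYT387, 6.41 in INC424 and 171 in SAR302503 for ABCB11. ATP10A, a phospholipid flippase, was 0 to 40.8 (median 8.43) in persistent, 170.1, 182 and 204 in DMSO and 268, 307 and 249 in naive libraries (log2 -5.44 ± 0.24). In the SAR302503 line it was at 0 in all 3 libraries. The 250 bases before the start of these genes and of SIGLEC12 are shown. Each was among the genes farthest from both control states or the most changed. The other such genes whose promoters were searched, TCN1, IL1RL1, PCSK6 and HPGD among them, held none of the motifs and are not shown. The promoters shown are therefore not typical of such genes in holding a motif. Sequences are on the gene's strand, from RefSeq, build GRCh38.p14. Capitals mark a GATA match (AGATAA) in ABCB11 and a STAT match (TTCNNNGAA) in ATP10A and SIGLEC12, and DHRS9 holds none of the motifs searched.
ABCB11, chr2:169031325-169031574, minus strand: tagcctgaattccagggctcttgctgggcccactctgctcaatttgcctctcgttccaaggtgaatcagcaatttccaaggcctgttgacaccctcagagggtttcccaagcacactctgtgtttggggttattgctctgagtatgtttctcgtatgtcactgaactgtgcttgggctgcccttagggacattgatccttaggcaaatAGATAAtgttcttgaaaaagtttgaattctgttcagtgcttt
DHRS9, chr2:169066827-169067076, plus strand: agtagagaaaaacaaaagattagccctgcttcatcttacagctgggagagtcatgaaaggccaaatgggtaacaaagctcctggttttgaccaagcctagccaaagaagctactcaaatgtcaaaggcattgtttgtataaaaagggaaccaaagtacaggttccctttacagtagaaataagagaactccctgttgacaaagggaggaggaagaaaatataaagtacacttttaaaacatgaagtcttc
ATP10A, chr15:25863328-25863577, minus strand: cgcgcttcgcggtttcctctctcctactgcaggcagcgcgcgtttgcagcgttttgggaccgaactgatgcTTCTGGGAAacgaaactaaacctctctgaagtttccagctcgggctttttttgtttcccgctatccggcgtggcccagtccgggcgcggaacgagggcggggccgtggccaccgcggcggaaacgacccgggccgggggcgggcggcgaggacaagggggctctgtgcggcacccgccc
SIGLEC12, chr19:51501801-51502050, minus strand: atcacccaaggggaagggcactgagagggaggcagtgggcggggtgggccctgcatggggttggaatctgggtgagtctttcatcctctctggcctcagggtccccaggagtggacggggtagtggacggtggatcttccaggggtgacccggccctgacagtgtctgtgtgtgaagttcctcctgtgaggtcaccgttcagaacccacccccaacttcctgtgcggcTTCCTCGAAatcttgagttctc

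Over the separated genes these motifs were no more common than among all tested genes except for GATA in the lower set. Both strands were searched for TTCNNNGAA, AGATAA and CACGTG in the 250 bases before the start, and 335 higher and 469 lower genes had a RefSeq promoter, as did 10734 of all tested genes. The STAT motif was in 2.39% of higher, 3.84% of lower and 5.54% of all tested genes' promoters, and in 6.78% of the 27305 promoters in the RefSeq table. The GATA motif was in 4.78%, 8.10%, 5.29% and 9.37% of the same sets. The E box CACGTG, which reads the same on both strands, was in 7.16%, 7.25%, 8.62% and 6.49%. The motifs can share bases with each other, and no promoter printed here held more than 1 of them. A match is a string of letters and no measure of binding, and no test was made.

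Regulators and surface proteins of blood progenitors were lower in part. Of 28 stem and progenitor genes 5 rose (17.9%) and 8 fell (28.6%), against 9.79% and 12% of all tested genes. Of the 28, 1 was separated upwards (3.57%, against 2.44%) and 4 downwards (14.3%, against 3.96%). Without naive library 1, 7 were separated downwards. IKZF2, the transcription factor Helios, was 21.3 to 221 (median 43.1) in persistent, 506, 499 and 459 in DMSO and 951, 1046 and 916 in naive libraries (log2 -4.03 ± 0.24). MYB, a factor of immature blood cells, was 1647 to 7405 (median 4981) in persistent, 9627, 9316 and 8923 in DMSO and 10783, 10231 and 9895 in naive libraries (log2 -1.15 ± 0.20). Both were apart from each control state. CD34, the progenitor sialomucin, was 4734 to 27878 (median 16858) in persistent, 24099.6, 26444 and 26585 in DMSO and 34419, 29505 and 31088 in naive libraries (log2 -1.16 ± 0.08). Its difference ranged over the lines from -2.65 in INC424 to -0.23 in SAR302503. SPI1, the factor PU.1 of myeloid cells, was 497 to 1930.0 (median 842) in persistent, 2405, 2518 and 2821 in DMSO and 3023, 2946 and 3216 in naive libraries (log2 -1.80 ± 0.21), apart from both. Of 24 granulocyte and monocyte genes 10 fell (41.7%, against 12% of all tested genes) and none rose. Of the 24, 5 were separated (20.8%, against 3.96%), all downwards.

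Of 22 genes of protein folding in the endoplasmic reticulum and of its stress response 13 fell (59.1%, against 12% of all genes). None rose, and 7 were separated (31.8%, against 3.96%), all downwards. DMSO matched all 7 and none was apart from it (list median -0.41, and -0.30 in DMSO). P4HB, a protein disulphide isomerase, was 29259.6 to 43737 (median 33090.1) in persistent, 31449.5, 34362 and 36313 in DMSO and 68393, 59631 and 64166 in naive libraries (log2 -0.91 ± 0.09). ERN1, the stress sensor IRE1, was 324 to 956 (median 703) in persistent, 609, 716 and 697 in DMSO and 1307, 1576 and 1600.0 in naive libraries (log2 -1.13 ± 0.17). Its target XBP1 was 6170.0 to 12318 (median 10347) in persistent, 5378, 5775 and 5739.9 in DMSO and 21098, 16521 and 20206 in naive libraries (log2 -1.0 ± 0.10). XBP1 was lower in each DMSO library than in any persistent one. EDEM1, which clears misfolded proteins, was among the lower genes most alike over the lines, with log2 differences of -1.09 in BMS911543, -1.08 in CYT387, -1.03 in INC424 and -0.99 in SAR302503.

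ATP6V0A2, a subunit of the proton pump of acidic vesicles, was among the lower genes most alike over the lines. It was 1771 to 3266 (median 2744) in persistent, 4589.5, 4491 and 4001 in DMSO and 6099.5, 6305 and 6291 in naive libraries (log2 -1.27 ± 0.12). The 3 groups were apart, with DMSO between persistent and naive cells. The lowest ATP6V0A2 value was in CYT387 persistent library 2. Of 71 RAB GTPases of vesicle traffic 7 rose (9.86%) and 12 fell (16.9%), against 9.79% and 12% of all tested genes. Of the 71, 1 was separated upwards (1.41%, against 2.44%) and 5 downwards (7.04%, against 3.96%). RAB27B, which docks secretory granules, was 412 to 2026 (median 1012) in persistent, 1593, 1437 and 1376 in DMSO and 4061, 3016 and 3062 in naive libraries (log2 -1.87 ± 0.15). RAB3D, another granule GTPase, had similar line means (log2 -1.57 in BMS911543, -1.28 in CYT387, -1.57 in INC424 and -1.30 in SAR302503). The CYT387 mean of RAB3D rests in part on library 2, at 1151 against 467 and 366 in CYT387 libraries 1 and 3.

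Red cell genes made up the list with most separated members among the higher genes. Red cells are filled with globin, and make haem for it in mitochondria and cytosol. Of 40 tested erythroid genes 25 rose (62.5%) and 2 fell (5%), against 9.79% and 12% of all tested genes. Of the 40, 9 were separated (22.5%, against 2.44%), all upwards (list median 0.67, and 0.08 in DMSO). The list median was 0.94 in the BMS911543 line, 0.08 in CYT387, 1.11 in INC424 and 0.66 in SAR302503. Without CYT387 persistent library 2 the number separated was 22. DMSO matched 7 of the 9, and 4 were apart from both control states. HBA1, an alpha globin whose reads may be split with its near copy HBA2, was 1849.6 to 13911 (median 6819.6) in persistent, 683, 934 and 1154 in DMSO and 361, 332 and 322 in naive libraries (log2 4.06 ± 0.21, adjusted p = 3.94e-12). All 3 groups were apart. HBA2 was 654 to 15153 (median 4159) in persistent, 648, 624 and 803 in DMSO and 220.4, 198 and 170.2 in naive libraries (log2 4.28 ± 0.33), with an overlap between persistent and DMSO.

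SLC4A1, the anion exchanger of the red cell membrane, was 332 to 4052 (median 1099) in persistent, 48.0, 55.9 and 47.4 in DMSO and 105, 155 and 179 in naive libraries (log2 2.97 ± 0.15). It was 1 of the 40 higher genes whose DMSO libraries lay on the opposite side of naive (DMSO minus naive -1.49, adjusted p = 3.79e-06). ALAS2, the first enzyme of haem synthesis in red cells, was 1153 to 3569 (median 2239) in persistent, 1005, 977 and 1188 in DMSO and 745, 823 and 785 in naive libraries (log2 1.45 ± 0.15). FECH, the last enzyme of that pathway, was 941 to 2060.4 (median 1777) in persistent, 1224, 1337 and 1293 in DMSO and 917, 777 and 806 in naive libraries (log2 0.97 ± 0.08). The persistent values of both overlapped with DMSO. SLC2A1, the glucose transporter GLUT1, was 8936 to 15116 (median 11283) in persistent, 5608, 6439.7 and 7382 in DMSO and 5344, 5109.9 and 4819 in naive libraries (log2 1.15 ± 0.10), apart from both and even over the lines (1.21 in BMS911543, 0.98 in CYT387, 1.11 in INC424 and 1.29 in SAR302503). The blood group gene RHD (log2 0.94 ± 0.16) and the glycophorin gene GYPE (log2 1.57 ± 0.11), whose reads may be split with its near copies, also rose, with DMSO within their persistent range.

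**Figure D3:**
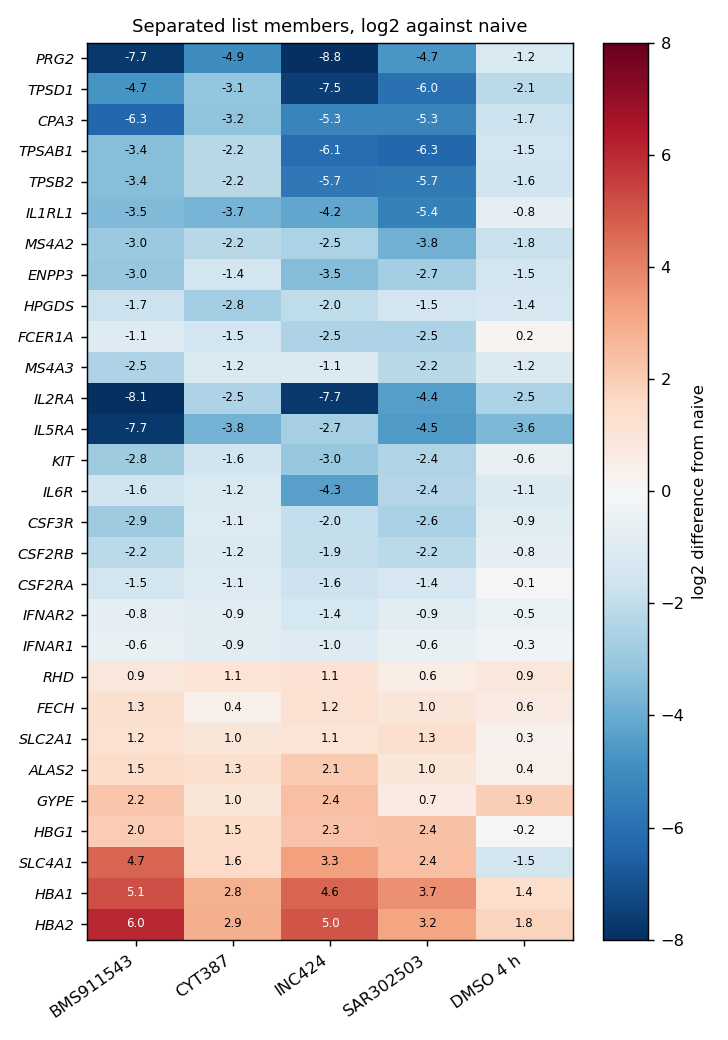
Log2 differences from naive cells (colour and number) of the separated members of 3 lists, in the 4 persistent lines and in DMSO 4 h. Rows from PRG2 to MS4A3 are mast cell, basophil and eosinophil genes, from IL2RA to IFNAR1 further receptors, and from RHD to HBA2 erythroid genes. Each row has 1 sign in the 4 lines because separation requires it, and FCER1A and SLC4A1 are among the rows with the other sign in DMSO. All columns share the naive libraries.

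Platelet-lineage genes went both ways. Of 34 megakaryocyte and platelet genes 13 rose (38.2%) and 5 fell (14.7%), against 9.79% and 12% of all tested genes (median -0.04). Of the 34, 4 were separated upwards and 4 downwards (11.8% each, against 2.44% and 3.96%). TUBB1, the beta tubulin of platelets, was 736 to 3847 (median 2248) in persistent, 572, 574 and 582 in DMSO and 718, 538 and 598 in naive libraries (log2 1.88 ± 0.20). Its lowest persistent value, near the highest naive one, was that of CYT387 persistent library 2. ITGB3, the beta chain of the fibrinogen receptor, was 3897 to 10821 (median 5311) in persistent, 3536, 3665 and 3358 in DMSO and 3826, 3744 and 3891 in naive libraries (log2 0.51 ± 0.13), with the BMS911543 line almost at the naive level (line log2 0.06 in BMS911543, 1.11 in CYT387, 0.46 in INC424 and 0.41 in SAR302503). Of 28 adhesion and integrin genes 3 rose (10.7%) and 12 fell (42.9%), against 9.79% and 12% of all tested genes. Of the 28, 3 were separated upwards (10.7%, against 2.44%) and 4 downwards (14.3%, against 3.96%). Without CYT387 persistent library 2, 7 were separated downwards. The integrins ITGA2 (log2 1.74 ± 0.28) and ITGA6 (log2 1.5 ± 0.27) rose with ITGB3, while ITGA4 (log2 -1.05 ± 0.23), ITGA9 (log2 -1.57 ± 0.14) and ITGB2 (log2 -1.12 ± 0.24) fell. SELP, the P-selectin of platelet granules, was 167 to 1291 (median 597) in persistent, 1095, 1117 and 1069.9 in DMSO and 1806, 1801 and 1911 in naive libraries (log2 -1.85 ± 0.11). ITGA2 and ITGA6 were highest in CYT387 persistent library 2, at 1664 and 3679.5.

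Of 24 genes of the G2 and M phases 17 rose (70.8%, against 9.79% of all tested genes) and none fell. Of the 24, 5 were separated (20.8%, against 2.44%), all upwards (list median 0.43, and 0.08 in DMSO). The list medians of the lines were 0.14 in BMS911543, 0.07 in CYT387, 0.76 in INC424 and 0.83 in SAR302503. The number separated was 8 without CYT387 persistent library 2 and 10 without naive library 1. CDC20, an activator of the anaphase complex, was 3936 to 8221 (median 5289) in persistent, 3797, 4256 and 4694 in DMSO and 2805, 2604 and 2303 in naive libraries (log2 1.05 ± 0.12). KIF20A, a kinesin of cell division, was 1474 to 2756 (median 1957) in persistent, 1215, 1349.5 and 1301 in DMSO and 1258, 1038 and 1016 in naive libraries (log2 0.83 ± 0.09). CCNB2, a mitotic cyclin, was 1711 to 3351 (median 2484) in persistent, 1577, 1524 and 1521 in DMSO and 1616, 1584 and 1368 in naive libraries (log2 0.69 ± 0.07). KIF20A, CCNB2 and the spindle protein NUSAP1 (log2 0.77 ± 0.10) were apart from both control states, while CDC20 and CENPA (log2 0.72 ± 0.11) overlapped with DMSO. Of 26 S phase genes 7 rose (26.9%, against 9.79%), and none was separated.

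Of 31 glycolysis and hypoxia genes 4 rose (12.9%) and 6 fell (19.4%), against 9.79% and 12% of all tested genes, with a list median of -0.02. PFKM, a phosphofructokinase, was 2262 to 4932 (median 3609.9) in persistent, 1440.0, 1419 and 1402 in DMSO and 1661, 2059.5 and 2007 in naive libraries (log2 0.85 ± 0.11). PKM, pyruvate kinase, was 41689 to 69883 (median 49142) in persistent, 25602, 26324 and 28789 in DMSO and 35965, 34092 and 29829.7 in naive libraries (log2 0.58 ± 0.12). Each persistent library was above both control states for these enzymes and for SLC2A1. The glucose transporter GLUT3, SLC2A3, was 1849.6 to 7788 (median 3209) in persistent, 2667, 2928 and 2828 in DMSO and 10044, 7821 and 8229 in naive libraries (log2 -1.30 ± 0.13). Of 31 oxidative phosphorylation genes 11 rose (35.5%, against 9.79%) and 1 fell (3.23%, against 12%). Separated upwards were 2 (6.45%, against 2.44%), COX5A (log2 0.63 ± 0.11) and COX6C (log2 0.92 ± 0.18), both subunits of cytochrome c oxidase. Without naive library 1 the number separated was 6.

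Several signalling genes were higher in the persistent libraries than in either control state. SRC, a non-receptor tyrosine kinase, was 3674 to 9688 (median 5645) in persistent, 1832, 1938 and 2185 in DMSO and 1244, 1542 and 1982 in naive libraries (log2 1.87 ± 0.11, adjusted p = 2.36e-11). Its line means were 6164 in BMS911543, 4117 in CYT387, 9028 in INC424 and 4738 in SAR302503. IRAK2, a kinase of interleukin 1 and Toll-like receptors, was 123 to 390.3 (median 294) in persistent, 19.5, 14.8 and 27.7 in DMSO and 41.0, 49.6 and 36.7 in naive libraries (log2 2.57 ± 0.29). MALT1, the protease of the NF-kB pathway, was 143 to 924 (median 215) in persistent, 65.1, 46.0 and 55.4 in DMSO and 58.6, 77.6 and 75.4 in naive libraries (log2 1.74 ± 0.31), and its highest value was in CYT387 persistent library 2. None of the 3 overlapped with naive or DMSO. Of 20 genes of the NF-kB list none was separated. In that list 4 rose (20%) and 2 fell (10%), against 9.79% and 12% of all tested genes.

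Other higher genes were apart from both control states. PCSK6, a proprotein convertase, was 624 to 3984 (median 1313) in persistent, 77.3, 91.2 and 121 in DMSO and 80.9, 94.9 and 95.8 in naive libraries (log2 3.93 ± 0.19). Among the higher genes named by the rule in the methods it had the widest gap to both control states, and its highest value was in CYT387 persistent library 2. TF, transferrin, was 75 to 1486 (median 231) in persistent, 33.4, 27.9 and 34.8 in DMSO and 39.9, 44.2 and 27.5 in naive libraries (log2 2.94 ± 0.21), highest in the INC424 line (line log2 2.94 in BMS911543, 1.55 in CYT387, 5.16 in INC424 and 2.12 in SAR302503) and lowest in CYT387 persistent library 2. UNC13B, which primes vesicles for release, was 507 to 1018 (median 709) in persistent, 176, 178 and 168 in DMSO and 267, 265 and 320.0 in naive libraries (log2 1.34 ± 0.14). These 3 genes were apart from both control states, and UNC13B had DMSO below naive. MAL, a membrane proteolipid, was 15.2 to 1404 (median 408) in persistent, 2.44, 0 and 0 in DMSO and 0, 0 and 3.06 in naive libraries, 555-fold higher over 3 naive reads in all (95% Clopper-Pearson interval 189.7 to 2691, counting error only). Its line means were 1353 in BMS911543, 38.8 in CYT387, 828 in INC424 and 26.3 in SAR302503. The fitted log2 difference of MAL, 6.84, was 7.52 without naive library 3. WNT5A, a Wnt ligand, was 8.05 to 1578 (median 46.8) in persistent, 3.26, 3.29 and 4.74 in DMSO and 0, 0 and 1.02 in naive libraries, 651-fold higher over 1 naive read (interval 117 to 25726). Its highest value was in CYT387 persistent library 2, and without that library, an alternative chosen after the data were seen, WNT5A was 394-fold higher (interval 70.7 to 15584).

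For some genes far from naive the DMSO libraries had already reached the persistent range. SPNS2, which exports sphingosine 1-phosphate, was 254 to 576 (median 395) in persistent, 309, 435 and 454 in DMSO and 32.8, 39.9 and 55.0 in naive libraries, a log2 difference of 3.24 in persistent cells and 3.21 in DMSO. IGFBP5, a binding protein of insulin-like growth factors, was 73.7 to 20427 (median 4040.4) in persistent, 897, 968 and 1064 in DMSO and 52.7, 33.4 and 33.6 in naive libraries (log2 5.89 in persistent cells and 4.61 in DMSO). The persistent range of IGFBP5 enclosed DMSO, with line means of 3211 in BMS911543, 20067 in CYT387, 5004 in INC424 and 97.9 in SAR302503. PDE5A, a phosphodiesterase of cyclic GMP, was 51.8 to 726 (median 482) in persistent, 204, 177 and 165 in DMSO and 32.8, 10.8 and 33.6 in naive libraries (log2 3.76 in persistent cells and 2.93 in DMSO). The lines spread to both sides of DMSO in PDE5A too. Among the lower genes, SDK2, an adhesion molecule of neurons, was 0.792 to 69.5 (median 30.6) in persistent, 12.2, 15.6 and 6.33 in DMSO and 345, 449.6 and 421 in naive libraries (log2 -4.00 in persistent cells and -5.11 in DMSO). LOXL2, a lysyl oxidase of the matrix, was 20.3 to 1107 (median 176) in persistent, 112, 145 and 134 in DMSO and 1939.8, 1921 and 2042 in naive libraries (log2 -4.05 in persistent cells and -3.92 in DMSO), with its highest persistent value in CYT387 library 2. ERVFRD-1, the retroviral envelope gene syncytin 2, was 12.8 to 102 (median 54.6) in persistent, 10.6, 10.7 and 18.2 in DMSO and 252, 294 and 203 in naive libraries (log2 -2.39 in persistent cells and -4.17 in DMSO), and was lower in DMSO than in most persistent libraries.

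In the fit of all 8 groups, the 4 lines differed in level for most of the lower genes. An F test across the lines, whose contrasts use no naive library, called 479 of 798 lower genes (60.03%) and 199 of 491 higher genes (40.5%), against 47.1% of all tested genes. Without CYT387 persistent library 2 these counts were 793 and 383, of larger sets of separated genes, and without naive library 1 the higher count was 338. With only the persistent lines in the fit, the F test called 4983 of all tested genes in place of 9491. The shares of the separated genes were not counted in that fit. The median range over the line means was 1.00 on the log2 scale for lower genes, 0.56 for higher genes and 0.91 for all. The INC424 line was the most changed for 286 lower genes, BMS911543 for 231, CYT387 for 146 and SAR302503 for 135. For the higher genes these numbers were 132, 112, 145 and 102. Against naive, the lower genes called lower numbered 640 in BMS911543, 657 in CYT387, 659 in INC424 and 624 in SAR302503 cells, against 14.2%, 11.1%, 12.5% and 10.6% of all tested genes. Of the 491 higher genes 345, 402, 388 and 376 were called higher in the same lines, against 10.4%, 11.2%, 9.95% and 8.7% of all. These counts follow from how the genes were chosen. The median of the lower genes was -1.26 in BMS911543, -0.96 in CYT387, -1.30 in INC424 and -1.11 in SAR302503, and that of the higher genes 0.76, 0.84, 0.88 and 0.82. All 4 single lines were called lower for 437 of the 798 genes (2.31% of all genes) and higher for 232 of the 491 (1.29% of all genes; 357 without CYT387 persistent library 2). Among the higher genes most alike over the lines were XPA, a DNA repair factor (1.27 in BMS911543, 1.22 in CYT387, 1.23 in INC424 and 1.17 in SAR302503), ELL2, an elongation factor (1.08 in BMS911543, 1.12 in CYT387, 0.96 in INC424 and 0.92 in SAR302503), and MINOS1, of the inner mitochondrial membrane (0.86 in BMS911543, 1.05 in CYT387, 1.14 in INC424 and 0.99 in SAR302503). For all 3 the DMSO libraries lay within the persistent range. Their CYT387 means rest in part on library 2, which held the highest CYT387 value of each. XPA was 171 there, against 61.6 and 102 in CYT387 libraries 1 and 3. ELL2 was 2309 there, against 1036 and 810, and MINOS1 1048, against 372 and 396.

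The effect of adding INC424 to naive cells was measured in libraries that played no part in choosing the separated genes, and was read against DMSO. At 48 h, 275 of the 798 lower genes were higher with INC424 (34.5%, against 17.6% of all tested genes) and 134 were lower (16.8%, against 16.4%). Their median difference was 0.27, and that of all genes 0.00. Of the 491 higher genes 107 were higher (21.8%) and 120 lower (24.4%), with a median of -0.01. At 4 h, 108 lower genes were higher with INC424 (13.5%, against 4.88% of all genes) and 45 lower (5.64%, against 3.49%), with a median of 0.16. Of the higher genes 33 were higher (6.72%) and 37 lower (7.54%), with a median of -0.10. The vehicle was given for 4 h only, so time in vehicle was not matched at 48 h, and DMSO was itself called below naive for 463 of the 798 lower genes and above it for 214 of the 491 higher ones. Counts moved with single libraries. Without CYT387 persistent library 2, which left larger sets, the higher genes had 207 called higher and 193 lower at 48 h, and 93 and 87 at 4 h. Without it the lower genes had 223 called lower at 48 h, and 218 higher and 92 lower at 4 h. Without naive library 1 the higher genes had 244 called lower at 48 h and 73 at 4 h, and the lower genes 441 called higher at 48 h and 177 at 4 h. Leaving out DMSO library 1, 2 or 3 or INC424 4 h library 2 or 3 gave 19 to 23 higher genes called lower at 4 h. Leaving out DMSO library 2 or 3 or INC424 4 h library 1 or 3 gave 27 to 29 lower genes called lower at 4 h.

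**Figure D4:**
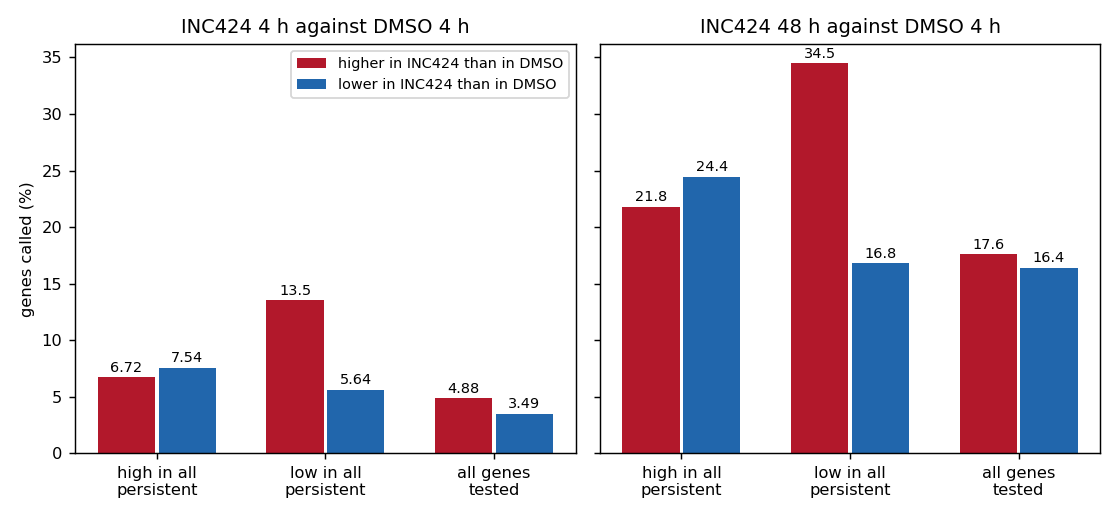
Percentage of genes called higher (red) or lower (blue) in INC424-treated than in DMSO-treated naive cells at 4 h (left) and 48 h (right), for the 491 genes high and the 798 genes low in all persistent libraries and for all 20154 tested genes. At 48 h 34.5% of the low genes were higher with INC424, against 17.6% of all genes.

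Members of the lower set moved both ways with acute INC424. ERVFRD-1 was 462, 439.7 and 414 after 48 h of INC424 and 10.6, 10.7 and 18.2 in DMSO (log2 5.0, adjusted p = 1.69e-10), above its naive values. SDK2 was 149, 168 and 159 after 48 h of INC424 and 12.2, 15.6 and 6.33 in DMSO (log2 3.77). Both genes were far below naive in DMSO. The MHC class I gene HLA-E was 30944, 31232 and 32753 after 48 h of INC424 and 10043, 10995 and 11979 in DMSO (log2 1.53), within the naive range of 30083 to 34412. KIT was 27148, 27804 and 26479 after 48 h of INC424 and 15637, 15822 and 14807 in DMSO (log2 0.82, adjusted p = 0.015), while each persistent library had at most 10977. Other members were lower with INC424. S100P, a calcium-binding protein, was 21.6, 27.2 and 25 after 48 h of INC424 and 183, 211 and 244 in DMSO (log2 -3.06), and SIGLEC12 was 2545, 2533 and 2605 after 48 h of INC424 and 7477, 8364 and 9115 in DMSO (log2 -1.69).

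Of the higher genes, RNASE1, a secreted ribonuclease, was 3929, 4443 and 4675 after 48 h of INC424 and 314, 317 and 424 in DMSO (log2 3.64), against 934 to 3808 (median 2272) in persistent libraries. SLC4A1 was 441, 446 and 393 after 48 h of INC424 and 48.0, 55.9 and 47.4 in DMSO (log2 3.06). ALAS2 was 8381, 8683 and 8839 after 48 h of INC424 and 1005, 977 and 1188 in DMSO (log2 3.04), above its highest persistent library. These 3 genes were thus higher both with acute INC424 and in the persistent lines. SPNS2 went the other way, at 71.3, 43.7 and 58.1 after 48 h of INC424 and 309, 435 and 454 in DMSO (log2 -2.78, adjusted p = 3.99e-08), while each persistent library had at least 254.

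Most of the remaining lists held few separated genes. None was separated among 23 cholesterol synthesis genes, 26 S phase genes, 15 G1 cyclins and CDK inhibitors, 12 MHC class II genes, 9 mitochondrially encoded genes or 12 replication-dependent histone genes, nor among 15 squamous and 11 stromal markers. Yet 7 of the 12 MHC class II genes fell (58.3%, against 12% of all tested genes). The median of that list was 0.32 in the BMS911543, 2.20 in the CYT387, -2.11 in the INC424 and -3.63 in the SAR302503 line. Of 30 ATF4 and amino acid genes 18 fell (60%, against 12%) and 1 rose (3.33%, against 9.79%). Separated downwards were 2 (6.67%, against 3.96%), TRIB3 and ATF5 (log2 -0.78 ± 0.12). TRIB3, a pseudokinase of the stress response, was 658 to 3494 (median 2490.4) in persistent, 913, 1017 and 1057 in DMSO and 5379, 4253 and 4682 in naive libraries (log2 -1.30 ± 0.13). Of 16 MAPK feedback genes 9 fell (56.25%, against 12%). SPRED1 (log2 -1.39 ± 0.14) and ETV5 (log2 -1.53 ± 0.15) were separated downwards (12.5%, against 3.96%), both with DMSO in their persistent range. Of 28 chromatin regulators of myeloid neoplasms 9 fell (32.1%, against 12%) and 2 rose (7.14%, against 9.79%). DNMT3A (log2 -0.43 ± 0.14), KDM5B (log2 -0.75 ± 0.13), IDH1 (log2 -0.69 ± 0.09), BCOR (log2 -0.47 ± 0.11) and ZRSR2 (log2 -0.55 ± 0.15) were separated downwards (17.9%, against 3.96%). SRSF2 was separated upwards (3.57%, against 2.44%), and without CYT387 persistent library 2 there were 4 upwards. Adjusted p was above 0.05 for DNMT3A without naive library 1, 2 or 3 (0.0679, 0.0629 and 0.136), and without naive library 1 for ZRSR2 (0.0965) and SRSF2 (0.16). With only the groups compared in the fit it was 0.106 for DNMT3A, 0.0505 for ZRSR2 and 0.065 for SRSF2. Of 17 NRF2 and pentose phosphate genes 3 rose (17.6%) and 2 fell (11.8%), against 9.79% and 12% of all tested genes. Of these 17 genes 2 were separated upwards (11.8%, against 2.44%), SRXN1 (log2 0.60 ± 0.15) among them (5 without naive library 1). Of 16 BCL2 family genes 3 rose and 3 fell (18.8% each, against the same shares of all tested genes). The pro-death BAD (log2 0.97 ± 0.28) was separated upwards and the survival gene BCL2A1 (log2 -2.67 ± 0.74) downwards. Adjusted p of BAD was 0.0665 without naive library 1 and 0.0943 without naive library 3, and that of BCL2A1 was 0.0536 without naive library 3 and 0.0535 with only the groups compared in the fit. Of 16 lymphoid genes 5 fell (31.25%, against 12%). The cytotoxic genes PRF1 (log2 -2.80 ± 0.18) and NKG7 (log2 -2.18 ± 0.20) and the B cell receptor chain CD79B (log2 -1.05 ± 0.31) were separated downwards (18.75%, against 3.96%). Defining lymphoid markers took at most 0.00464% of reads in persistent and 0.00371% in naive libraries. Adjusted p of CD79B was 0.076, 0.0655 and 0.0566 without naive library 1, 2 and 3, and 0.0731 with only the groups compared in the fit. In the zinc finger family 15 of 466 (3.22%) were separated, all downwards, and 54 (11.6%) fell, both near the shares of all tested genes (3.96% and 12%), and 13 rose. Solute carriers were split, with 10 of 253 separated upwards (3.95%, against 2.44% of all tested genes) and 11 downwards (4.35%, against 3.96%).

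**Figure D5:**
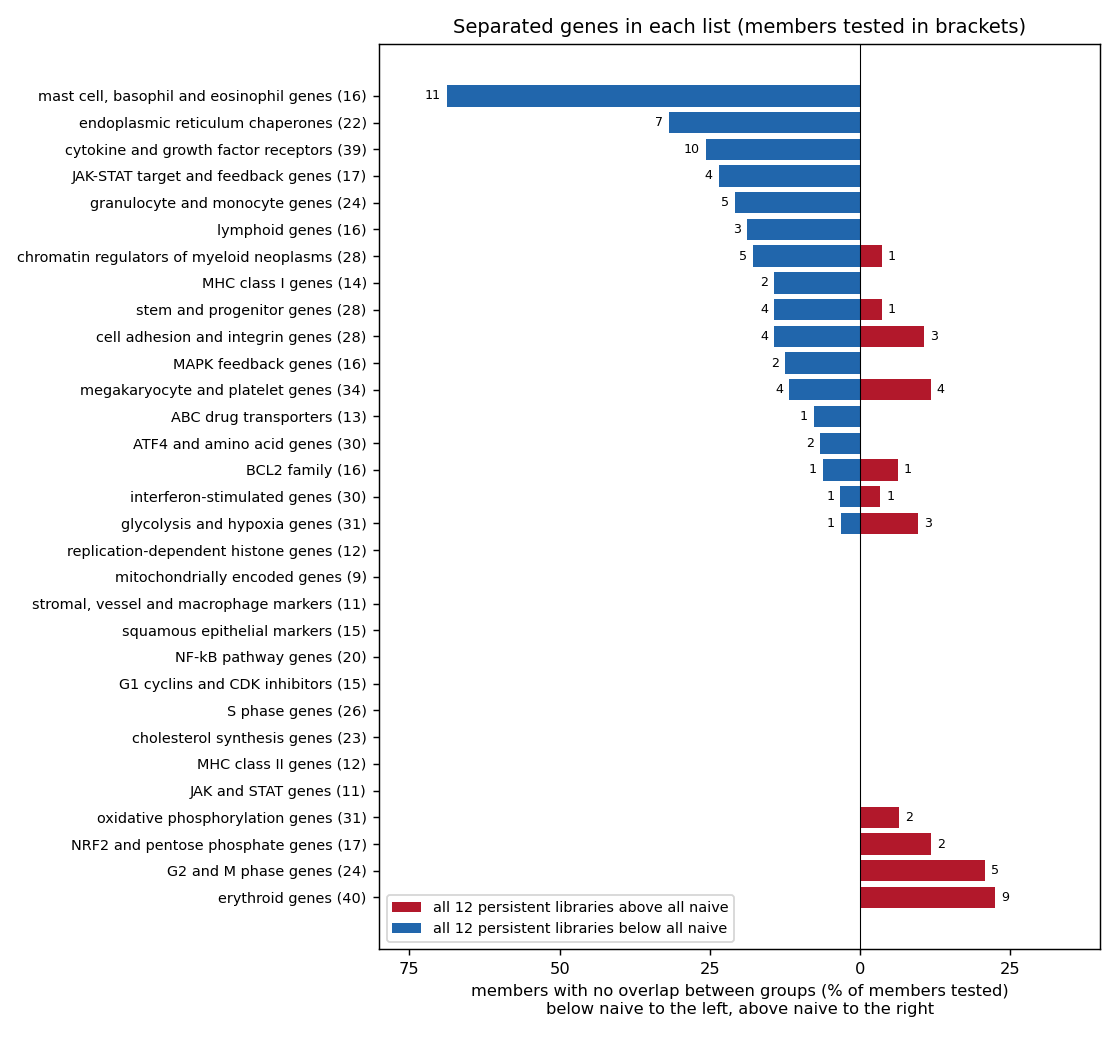
Share of tested members of each list (in %, members tested in brackets) with all 12 persistent libraries below all naive libraries (blue, left) or above them (red, right). Numbers beside the bars are genes. The mast cell, basophil and eosinophil list has 11 of 16 to the left, and the erythroid list 9 of 40 to the right. Over all tested genes the shares are 3.96% and 2.44%.

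Separated genes were named protein-coding genes more often than tested genes in general. The RefSeq class was protein coding for 90.8% of higher and 80.5% of lower genes, against 69.8% of all tested genes, and 5.50%, 14.2% and 20.1% had no match in the RefSeq annotation. Their median level over the 15 libraries was 747 and 656, against 279.6 for all tested genes.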

How the data were processed

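Per the labels' protocols, poly(A) RNA was cut with RNase III, amplified over 16 PCR cycles and read on an Ion Proton sequencer. The authors deposited a normalised signal for 25082 genes, that is, read counts per gene over 1 size factor for each library. The submitters' processing notes name BWA 0.7.5.1, HTSeq 0.5.3p3, DESeq 1.10.1, hg19 and GRCh37, with no role. In each library the values were whole multiples of a single step (tolerance 0.01), and their quotients, whole reads, were used only in alternatives. In 3 libraries the step was within 0.01 of 1, which says nothing of how their values were made. Samples were grouped by their labels.

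Genes with a value of at least 10 in at least 3 of the 24 libraries were tested, 20154 in all. Of the 4928 genes left out, 4 lay above and 35 below naive in every persistent library. The step to log2 added 1, so fold changes of low genes are understated. A limma 3.58.1 fit in R 4.3.3 covered 8 groups of 3 with trended empirical Bayes and 16 residual degrees of freedom. Separation, matching by DMSO and list counts are descriptions without a test. Alternatives included edgeR 4.0.16 and DESeq2 1.42.0 on the recovered reads. The main fit was also run on simulated counts, in which changed genes had the same fold in all 4 lines. Those counts held no differences among lines and no outlying library, so nothing is read from them here.

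The members, the 31 lists (712 entries, 691 in the table) and the 10 symbol families were chosen with earlier results of these data known. Some genes were named only among separated genes with a limma adjusted p under 0.05 and a mean of at least 50. These were the 10 largest and 10 smallest differences and the 10 widest gaps to both control states in each direction. The 6 most even over lines also needed an absolute log2 difference of at least 1. For the 3 nearest the edge on either side only the mean of at least 50 was required. Neither filter was applied to the 6 largest matched by DMSO, up to 6 separated members of each list and the 5 largest INC424 48 h changes. Other genes named (neighbour runs, gene families and further separated members of lists) were picked after their values were seen. Promoters are the 250 bases before the start in the RefSeq table of GRCh38.p14, found for names only. The table's own build is another, so no coordinates of it are given. Promoters on chromosome 8 were not printed.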

Additional observations from a re-analysis of the deposited data

Results flagged for a closer look

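The 4 persistent lines differed widely in level for some separated genes. A closer look was asked for where the F test across lines passed its threshold and the line means spanned at least 5 on the log2 scale. Among the higher genes this held for IGFBP5 (range 7.69), MAL (5.71), PLCE1, a phospholipase C (5.62), WNT5A (5.15) and GPR158, an orphan receptor (5.07). Among the lower genes it held for DHRS9 (5.90), ADCYAP1 (5.87), FAT3 (5.70), IL2RA (5.61) and ABCB11 (5.35). In WNT5A a single library, CYT387 persistent 2, held the highest value. In all 5 lower genes the BMS911543 line had the lowest mean and the INC424 line the next lowest.

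Markers of cells that are not SET2 took reads in that same library, and squamous markers in some others too. Squamous epithelial markers made up 0.495% and markers of stroma, vessel and macrophages 0.598% of the reads of CYT387 persistent 2. In naive libraries these shares were at most 0.00166% and 0.000621%. Squamous markers also took 0.101% in SAR302503 persistent 3, 0.0240% in INC424 persistent 2 and 0.0213% in SAR302503 persistent 2. In the BMS911543 line they took at most 0.00162%. The median log2 difference of the 15 tested squamous markers was -0.62 in BMS911543, 3.40 in CYT387, 3.86 in INC424 and 4.16 in SAR302503. The part of these markers in the results was not tested beyond leaving libraries out.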

How the results depend on the processing

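No named gene changed direction under any alternative run. Of the results for single genes 7866 stayed on their side of the threshold, 154 lost the call and 27 gained it. TMM or upper-quartile scaling shifted the median of all genes by under 0.1, and the share of higher calls was 44.9%, 45.3% with TMM and 44.3% with upper quartiles.

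The same replicate numbers did not pair libraries: deviations from group means had a median correlation of -0.006 over 84 same-numbered pairs and 0.012 over 168 others. A fit with the replicate number as a block called 1941 genes higher and 2404 lower against naive, 6669 against DMSO, 5194 for DMSO against naive, 1644 and 6782 for INC424 at 4 h and 48 h, and 9354 among lines. With that block 229 higher and 427 lower separated genes were called in each line, and 199 and 483 differed among lines.

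With only the groups compared in the fit, 1145 genes were called higher against naive, 4422 for INC424 at 4 h, 10613 at 48 h and 4983 among lines. A required gap of at least 0.5 left 77 higher genes (53 matched by DMSO, 31 apart from it) and 216 lower ones (186 and 89). A gap of at least 1 left 28 (21 and 16) and 82 (77 and 50).

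Leaving out the 4 libraries richest in epithelial markers (CYT387 persistent 2, SAR302503 persistent 3, INC424 persistent 2 and INC424 48 h 3) gave 3212 genes higher against naive, 8518 for DMSO against naive and 4259 for INC424 at 4 h. It gave 780 separated higher genes, with 278 higher and 329 lower genes apart from DMSO. Of its higher genes INC424 called 129 higher and 123 lower at 4 h, and 233 and 217 at 48 h. Of its lower genes it called 279 and 128 at 4 h, and 445 and 264 at 48 h. In each line 402 higher and 669 lower genes were called, and 469 and 929 differed among lines. Leaving out persistent libraries can only add separated genes, apart from genes that are then no longer tested. The DMSO, naive and INC424 4 h groups lost no library. Calls between them could change only through the genes tested and the estimate of spread that all groups share. No other cause of these shifts was tested.

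Leaving out each library in turn gave these ranges. Against naive 1350 to 2897 genes were called higher and 1758 to 3218 lower, against DMSO 4679 to 8809, for DMSO against naive 3914 to 7506, for INC424 930 to 3316 at 4 h and 5382 to 8851 at 48 h, and among lines 8046 to 10904. Separated genes numbered 491 to 825 higher (309 to 573 matched, 143 to 240 apart) and 795 to 1225 lower (622 to 999 matched, 199 to 278 apart). Leaving out a library can only add separated, matched or apart genes, except where a gene no longer passed the filter on low values. The lowest of these counts were therefore all but fixed in advance, and nothing is read from them. Of the higher genes INC424 called 22 to 93 higher and 19 to 87 lower at 4 h, and 90 to 207 and 96 to 244 at 48 h. Of the lower genes it called 78 to 218 and 27 to 92 at 4 h, and 232 to 441 and 110 to 223 at 48 h. In each line 178 to 357 higher and 331 to 594 lower genes were called, and 177 to 383 and 447 to 793 differed among lines. The highest counts came without CYT387 persistent library 2 or without naive library 1, and the lowest counts against naive without naive library 3. Of named genes, the log2 difference of GPR158, 4.75, was 3.90 without naive library 2. Counts of edgeR and DESeq2 on recovered reads were within 1.5 times those above. The precision is limited by 3 libraries per group, and separation from 3 naive libraries rests on their range.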
